A study of Homo sapiens with 6 samples.

Results

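Intestinal differentiation is represented here by 9 genes that were chosen by name. Of these, 5 encode transcription factors of intestinal identity (CDX1, CDX2, KLF4, KLF5 and HNF4A) and 4 encode products of differentiated colon cells (VIL1, MUC2, KRT20 and LGALS4). They are 9 of the 20163 protein-coding genes of the hg19 annotation. All libraries came from HCT116, a long-established line of human colorectal cancer cells. HCT116/Scrsh cells carried a scramble shRNA and are called control cells below. HCT116/ABsh-1 cells carried an shRNA against both KDM3A and KDM3B, so that both demethylases were depleted together, and are called depleted cells. The labels describe the treatment as siRNA, and whether HCT116/ABsh-1 was a clone or a pool is not given in the sources used here. Chromatin immunoprecipitation and sequencing (ChIP-seq) was done for KDM3B and for H3K9me2 in each cell population, with 1 library per antibody and population and 1 input library per population. The 2 input libraries and RNA levels were not analysed here, so neither the depletion nor the expression of the 9 genes was checked.

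KDM3A and KDM3B remove methyl groups from dimethylated lysine 9 of histone H3 (H3K9me2), a mark of silenced chromatin. In the gut, CDX1 and CDX2 are caudal-type homeobox factors that establish and maintain intestinal fate, and HNF4A is a nuclear receptor that cooperates with them in differentiating enterocytes. KLF4 is a zinc-finger factor of differentiated and goblet cells, whereas the related KLF5 is abundant in proliferating crypt cells. Villin (VIL1) bundles actin in the microvilli of the brush border, MUC2 is the secreted gel-forming mucin of goblet cells, keratin 20 (KRT20) is an intermediate filament protein of the upper crypt and surface, and galectin-4 (LGALS4) is a lectin of the intestinal epithelium.

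The comparison asked where KDM3B and H3K9me2 were detected at these genes, and whether the places differed after KDM3A/B depletion. Each deposited list holds the regions in which ChIP reads exceeded input, on a grid of 100 bp, with a whole number in its column 5 whose meaning the sources used here do not name. That number was used only to rank regions within 1 list. A gene was counted when at least 1 bp of a region lay within 5 kb of any of its annotated transcription start sites (TSSs), within 50 kb of one, or in its body. Library depth is unknown. The lists differ in length. KDM3B had 17638 regions in control cells and 8046 in depleted cells, and H3K9me2 had 11645 and 88855. With 1 library per condition there was no replicate error and no test, and a gene without a region was a gene at which none was detectable at that library's depth.

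In depleted cells, H3K9me2 regions lay within 5 kb of a TSS at 7 of the 9 genes, all except KLF5 and KRT20, against 49.2% of all protein-coding genes. In control cells they lay at 2 of the 9, MUC2 and LGALS4, against 10.2%. At CDX1, CDX2, KLF4, HNF4A and VIL1 a region was found after depletion and none before, which is 5 of 9 genes against 40.2% of all genes. A KDM3B region was found within 5 kb of a TSS at CDX1, CDX2 and KLF5 in control cells, 3 of 9 genes against 35.0%, and at KLF5 alone in depleted cells, 1 of 9 against 19.2%. CDX1 and CDX2 had KDM3B in control cells and none in depleted cells, 2 of 9 genes against 20.0%. The KDM3B shares were near or below those of all genes. The H3K9me2 shares were above, at 77.8% of the members in depleted cells and 22.2%, or 2 genes, in control cells. The part of G and C content, described below, was not tested.

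In the gene bodies, H3K9me2 was found in the body of the same 7 genes in depleted cells (background 51.2%) and in that of MUC2 alone in control cells (background 15.9%). KDM3B was found in the body of KLF5 in control cells (background 34.3%) and in those of KLF5 and HNF4A in depleted cells (background 19.1%). In the wider window of 50 kb, KDM3B reached 8 of 9 genes in either population, against 71.8% of all genes in control cells and 50.6% in depleted cells. There, H3K9me2 reached 3 genes in control cells (background 37.3%) and 7 in depleted cells (background 75.8%).

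The H3K9me2 counts moved with the length of the list. When the list of depleted cells was reduced to its 11620 regions of highest column 5, the number nearest to the length of the control list without splitting ties, CDX2, KLF4 and MUC2 had a region within 5 kb, which is 3 genes against 17.0% of all genes. Among KDM3B regions of at least 200 bp, KLF5 alone had one within 5 kb in control cells, against 21.1% of all genes. No member had one in depleted cells, against 9.17%. The same was so for the 50% of each list with the highest column 5, against 21.2% and 10.3%. Column 5 rose with width in the KDM3B lists (Spearman's rho 0.846 in control and 0.807 in depleted cells), so these 2 settings are not independent.

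The sequences of the key regions are given in the direction of transcription of the gene, with CpG dinucleotides in capitals, read from the hg19 genome. The KDM3B regions of control cells near CDX2 (chr13:28543601-28543700, minus strand), CDX1 (chr5:149541301-149541400, plus strand) and KLF5 (chr13:73630401-73630500, plus strand) are shown because they make up the KDM3B counts above, together with the wider KLF5 region described below.
CDX2 KDM3B, control cells: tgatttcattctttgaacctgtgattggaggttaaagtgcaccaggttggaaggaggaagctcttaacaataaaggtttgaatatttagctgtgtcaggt
CDX1 KDM3B, control cells: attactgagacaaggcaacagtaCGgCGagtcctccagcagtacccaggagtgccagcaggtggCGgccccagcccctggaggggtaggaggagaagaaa
KLF5 KDM3B, control cells: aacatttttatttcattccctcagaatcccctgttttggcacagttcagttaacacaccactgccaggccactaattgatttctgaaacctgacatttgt
The regions of control cells upstream of CDX2 (chr13:28558501-28558700, minus strand) and KRT20 (chr17:39065601-39065800, minus strand) are shown as examples of places where KDM3B was called in both populations. Within 50 kb of the members there were 5 such regions. The first lies 4230 bases from a URAD start, nearer than any CDX2 start. At KRT20 the region of depleted cells was chr17:39065701-39065800, which is the first 100 bases printed.
CDX2 KDM3B, both populations: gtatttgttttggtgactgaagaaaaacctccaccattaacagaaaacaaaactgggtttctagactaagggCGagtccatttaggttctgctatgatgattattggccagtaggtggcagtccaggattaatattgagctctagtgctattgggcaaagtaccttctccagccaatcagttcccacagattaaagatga
KRT20 KDM3B, both populations: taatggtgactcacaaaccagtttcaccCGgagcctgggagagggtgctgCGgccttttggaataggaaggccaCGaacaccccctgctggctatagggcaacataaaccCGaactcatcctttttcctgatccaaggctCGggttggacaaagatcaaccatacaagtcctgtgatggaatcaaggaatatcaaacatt
The window in HNF4A (chr20:43017401-43017500, plus strand) is the one place at the members where a KDM3B region and an H3K9me2 region of depleted cells overlapped, and the windows in MUC2 (chr11:1075001-1075100 and chr11:1093601-1093700, plus strand) held H3K9me2 before and after depletion.
HNF4A KDM3B and H3K9me2, depleted cells: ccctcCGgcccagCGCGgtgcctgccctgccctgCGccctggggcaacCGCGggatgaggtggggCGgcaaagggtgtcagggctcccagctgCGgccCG
MUC2 first H3K9me2, both populations: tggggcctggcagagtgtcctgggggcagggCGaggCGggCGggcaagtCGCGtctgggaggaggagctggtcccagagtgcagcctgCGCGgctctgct
MUC2 second H3K9me2, both populations: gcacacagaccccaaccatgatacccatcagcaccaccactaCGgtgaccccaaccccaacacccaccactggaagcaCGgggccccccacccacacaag

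The CDX2 and KLF5 windows of control cells held 0 CpG and 39.0% and 40.0% G and C, below the median 100-bp KDM3B region of that list, which held 2 and 52.0%, whereas the CDX1 window held 3 and 61.0%, above it. The HNF4A window held 9 CpG and 78.0% G and C, against medians of 2 and 54.0% for 100-bp KDM3B regions of depleted cells. The first MUC2 window held 7 and 73.0% and the second 2 and 63.0%. The medians of 100-bp H3K9me2 regions of control cells were 1 and 51.0%. The 8 sequences were searched on both strands for CTTTGAT (the core bound by TCF/LEF factors), CACCC (KLF factors) and TTTAT (CDX factors), none of which contains another. They are a choice among the regions at the members, so the matches describe these 8 alone. CTTTGAT occurred in none of the 8 and in 1.53% of all 100-bp KDM3B regions of control cells. TTTAT occurred in the CDX2 window nearest its TSS and in the KLF5 window, against 16.2% of such regions. It also occurred in the KRT20 region, in the bases called in control cells alone, against 26.8% of the 200-bp KDM3B regions of control cells. CACCC occurred in the KRT20, HNF4A and second MUC2 sequences, against 44.3%, 24.8% and 29.6% of the regions of the same width in their lists. A match describes letters and not a bound site.

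Among the canonical start sites, KDM3B lay closest to that of the homeobox gene CDX2 (chr13:28535055-28543452, minus strand). Its region in control cells was 100 bp wide, was centred 198 bases upstream of the TSS and had a column 5 of 13, equal to or above 21.2% of the list. At CDX1 (chr5:149546341-149564121, plus strand) the region of control cells was centred 4991 bases upstream, at the edge of the window, with a column 5 of 16, and the window of 2 kb did not include it. Neither had a counterpart in depleted cells. At KLF5 (chr13:73629114-73651679, plus strand) the 2 populations had different places. In control cells a 100-bp region lay 2693 bases upstream of the canonical TSS, within the body of a longer transcript, and a 500-bp region lay in intron 1 at chr13:73634601-73635100, 1707 bases downstream, with a column 5 of 48. In depleted cells a single 100-bp region lay 207 bases downstream of the TSS in the untranslated part of exon 1, at chr13:73633301-73633400, with a column 5 of 10. None of the 4 regions of control cells in the windows or bodies of the members overlapped a KDM3B region of depleted cells. Of all KDM3B regions of control cells within 5 kb of a protein-coding TSS, 25.1% did. With 4 regions, the members cannot be told apart from that share.

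HNF4A (chr20:42984339-43061485, plus strand), with a distal group of start sites at its first base and a second group from 43029879 on, had no KDM3B region in control cells within 50 kb. In depleted cells it had regions at chr20:43015201-43015400 and chr20:43017401-43017500, both in intron 1 between the 2 groups of start sites. KLF4 (chr9:110247133-110252763, minus strand) had a 200-bp region 9250 bases downstream of its TSS in control cells, which is beyond the gene, and a 100-bp region 24100 bases downstream in depleted cells. No marker gene had KDM3B within 5 kb or in its body.

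Farther from the genes, 5 of 13 KDM3B regions of control cells overlapped one of depleted cells, or 38.5%, against 25.7% of all KDM3B regions of control cells, wherever they lay. The region 36641 bases upstream of CDX1, where PDGFRB has the nearest start site, had a column 5 of 88 in control cells and its counterpart one of 17 in depleted cells, at percentiles 93.5 and 51.0 of their lists. The region 15148 bases upstream of CDX2, where URAD has the nearest start site, had 86 and 102, at percentiles 93.1 and 97.9. That 24206 bases upstream of KRT20 had 79 and, for its overlapping 100-bp counterpart, 41, at percentiles 91.3 and 83.0. KRT20 (chr17:39032141-39041494, minus strand) had a second pair, identical in position, at chr17:39013401-39013500, nearer to the start of KRT12. The other overlapping pair was 33975 bases downstream of the MUC2 start. VIL1 was the member with KDM3B within 50 kb in control cells and none in depleted cells. Its 2 regions, of 600 and 100 bp, lay nearest to CTDSP1, 859 and 41 bases from a start site of that gene.

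**Figure D1:**
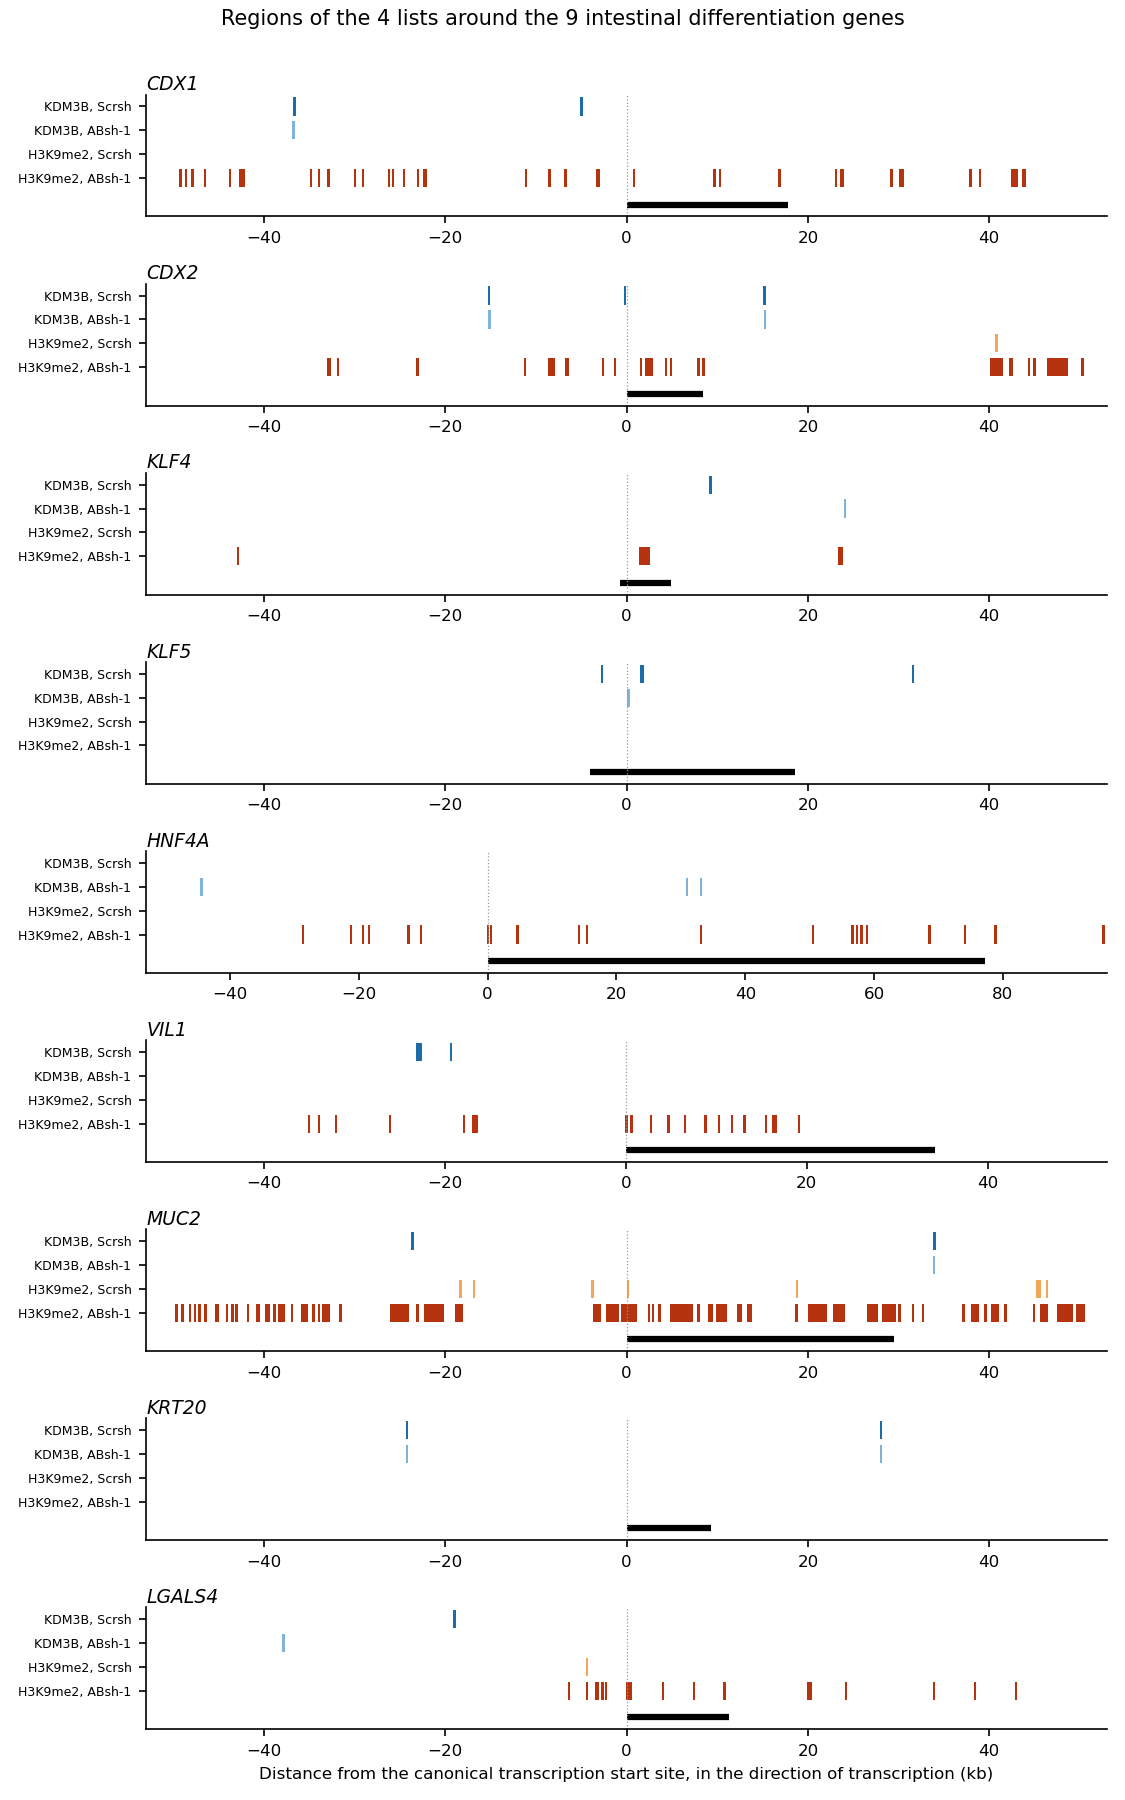
Regions of the 4 lists around each member, plotted by distance in kb from the canonical TSS in the direction of transcription, with the annotated gene as a black bar. Regions narrower than the drawing limit are drawn at a fixed minimum width, and the axis is longer for HNF4A. KLF5 and KRT20 have no H3K9me2 region in either population, and MUC2 has 58 within 50 kb of a TSS in depleted cells. MUC2 regions from 60075 bases downstream of the canonical TSS on lie beyond the axis. So does a KLF5 KDM3B region of control cells, 63407 bases downstream.

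In control cells no H3K9me2 region lay within 5 kb or in the body of any of the 5 transcription factor genes, against 10.2% and 15.9% of all genes. In depleted cells 4 of the 5, all except KLF5, had a region in each of these places, against 49.2% and 51.2%. CDX2 had 6 regions that covered 1600 bases of its windows, 13.3%. The widest, 900 bp at chr13:28540501-28541400 in intron 1, had a column 5 of 246, equal to or above 97.5% of the list, and others lay over coding exon 2 and 1248 and 2598 bases upstream. Regions of 100 bp lay in introns 1 and 2, and one of 200 bp, outside the windows, over the untranslated part of exon 3. None overlapped the KDM3B window of control cells. Nor did any of the 17 KDM3B regions of control cells within 50 kb of a member overlap H3K9me2 of depleted cells, as 0.533% of all KDM3B regions of that list did. CDX1 had 2 regions covering 700 bases, 7.0% of its window, one 3141 bases upstream and one in intron 1. Of the CDX1 regions in the window or the body, that of highest rank was 400 bp over exon 3 with a column 5 of 136, and 2 more of 100 bp lay in intron 1. KLF4 had a single region of 1200 bp, at chr9:110249501-110250700, centred in coding exon 3, with a column 5 of 208, and it covered 9.97% of the windows and 67.7% of the coding bases of the gene.

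HNF4A had 13 H3K9me2 regions of 100 to 300 bp spread from its first start site to its last exon. The 4 of them in its windows covered 2.96% of the windows, and all 13 covered 3.06% of its body. One of them spanned the distal TSS, at chr20:42984301-42984500. Others were centred in coding exons 2, 4 and 5, and the intron 1 region at chr20:43017401-43017600 overlapped the KDM3B window described above. Of all KDM3B regions in depleted cells, 1.18% overlapped an H3K9me2 region of the same cells. KLF5 had none, and the nearest H3K9me2 region of depleted cells was 176358 bases from its TSS.

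Among the markers, MUC2 (chr11:1074875-1104416, plus strand) carried the broadest H3K9me2. In depleted cells, 17 regions of 100 to 2500 bp lay in its windows or body and covered 46.2% of the body and 41.0% of the windows, the latter above 99.4% of all protein-coding genes. The widest ran 2500 bp over exons 7 to 13, at chr11:1079701-1082200, with a column 5 of 440. In control cells there were 3 narrow regions, at chr11:1071001-1071200 and in the 2 windows printed above, with column 5 of 25, 13 and 10. Both printed windows lay inside wider regions of depleted cells, of 1700 and 200 bp, while the region that starts at 1071001 lay next to, and not in, a 900-bp region that starts at 1071201. The hg19 annotation breaks MUC2 into 3 pieces with separate starts, so 2 of its 3 annotated TSSs are inside the gene. With the first start alone, the covered bases of the windows were 4675 in place of 8553.

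VIL1 (chr2:219283844-219318018, plus strand) had no H3K9me2 region within 50 kb in control cells. In depleted cells its body held 12, of 100 to 500 bp, and the 11 of these in the windows covered 8.98% of the windows. They included one over the TSS and others over coding exons 2, 4, 7, 10 and 14. LGALS4 (chr19:39292311-39303585, minus strand) had 8 regions in depleted cells covering 11.4% of the windows, the widest of them 700 bp over its TSS at chr19:39303001-39303700. Its one region in control cells, 100 bp at chr19:39307901-39308000, lay 54 bases from a start site of the neighbour ECH1, and 4 of the 8 regions of depleted cells were also nearer to an ECH1 start. KRT20 had no H3K9me2 region within 50 kb in either population, and the nearest of depleted cells was 88094 bases away.

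Over the 9 genes the median H3K9me2 cover of the windows in depleted cells was 8.98%, against 0% over all protein-coding genes, and the mean was 10.5% against 3.42%. MUC2 held 50.5% of the covered bases, 8553 of 16953. Ordered by cover, the genes were MUC2, CDX2 (13.3%), LGALS4 (11.4%), KLF4 (9.97%), VIL1 (8.98%), CDX1 (7.0%) and HNF4A (2.96%), and without replicates no neighbours in this order could be told apart or shown to be alike. The covers of CDX2, KLF4, VIL1 and LGALS4 were above those of 87.5% to 92.2% of all genes.

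H3K9me2 in depleted cells lay over the canonical TSS itself at 4 of the 9 genes, HNF4A, VIL1, MUC2 and LGALS4, against 4.78% of the 19881 genes with a canonical transcript. This measure was chosen after the members' values had been seen. Within 500 bases of the canonical TSS the same 4 members had a region, against 17.2% of genes. In control cells, whose list held 11645 regions against 88855, no member had a region over its TSS. The share of all genes is not given for control cells, so that absence is not read as a result about the members. At CDX1, CDX2 and KLF4 the nearest region of depleted cells began 660, 1149 and 1350 bases from the TSS. The genes also differed in CpG content within 500 bases of the TSS. HNF4A, VIL1, MUC2 and LGALS4 held between 17 and 32 CpG there and KRT20 held 23, while CDX2 held 60 and CDX1, KLF5 and KLF4 held 101, 106 and 119, with a median of 66 over all genes. When all genes were ordered by this number and divided into 5 parts of equal size, H3K9me2 lay over the TSS at 3.24% of the genes with the fewest CpG, then at 13.5%, 4.60%, 2.21% and, with the most CpG, 0.352%. VIL1 belonged to the lowest part, HNF4A, MUC2, KRT20 and LGALS4 to the next, CDX2 to the middle one and CDX1, KLF4 and KLF5 to the highest. The part of CpG content in the result was not tested. With the 11620 regions of highest column 5, MUC2 alone had a region over its TSS, against 2.03% of genes, and with the longest coding transcript of each gene HNF4A was no longer among the 4, since that transcript starts at the second group of start sites.

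**Figure D2:**
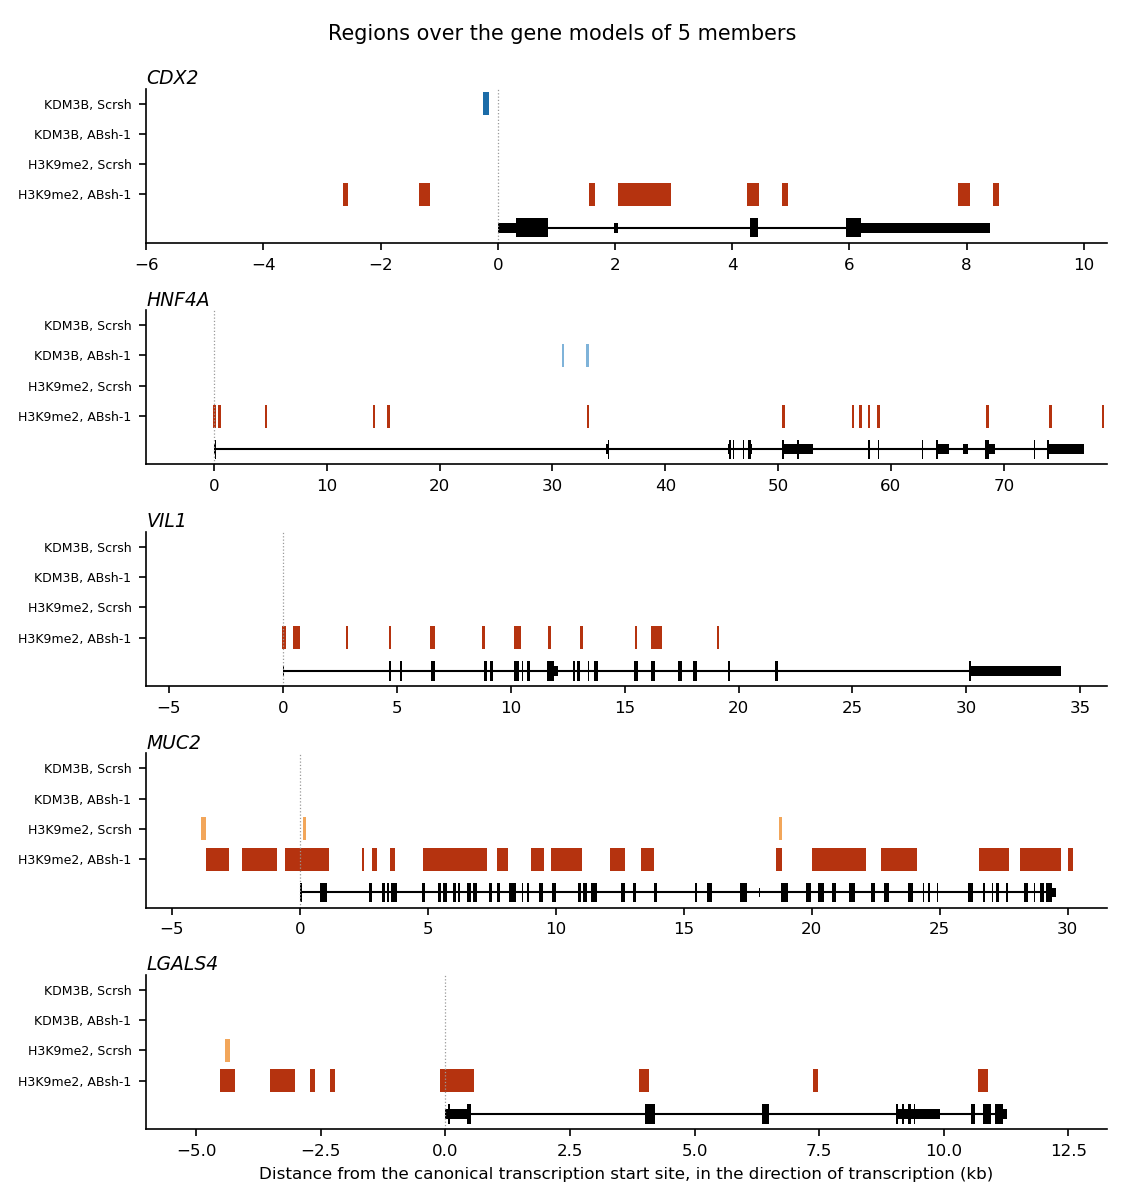
Regions of the 4 lists over the gene models of 5 members, plotted by distance in kb from the canonical TSS. Thick black boxes are coding exons, thin boxes untranslated exons and the line the gene. H3K9me2 regions of depleted cells span the TSS of HNF4A, VIL1, MUC2 and LGALS4, and the KDM3B region of control cells at CDX2 lies between H3K9me2 regions without touching one.

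Coding sequence was covered more densely than the rest of the gene at 6 of the 7 genes with H3K9me2. Covered coding bases amounted to 67.7% at KLF4, 55.5% at MUC2, 30.8% at LGALS4, 30.4% at HNF4A, 30.0% at VIL1 and 25.7% at CDX1, whereas non-coding bases of the same genes were covered for 5.41%, 43.2%, 7.48%, 2.24%, 4.29% and 4.10%. CDX2 was the exception, with 15.5% of coding and 18.2% of non-coding bases. The same direction was found at 61.9% of the 10333 protein-coding genes with H3K9me2 in the body, whose medians were 8.86% of coding and 1.70% of non-coding bases. Coding sequence was richer in G and C than the rest at those 6 genes except MUC2, for example 65.6% against 54.0% at KLF4 and 60.7% against 47.9% at HNF4A. The part of base composition in this was not tested.

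Across the 9 genes the H3K9me2 cover of depleted cells followed the G and C content of the windows, with Pearson's r of 0.839 and Spearman's rho of 0.845 (n = 9 genes of 1 library), and over 20144 protein-coding genes with 0.628 and 0.675. The genes without H3K9me2 had the lowest content, 39.1% at KRT20 and 40.8% at KLF5, and MUC2 the highest, 62.8%. The median of the members was 51.4% against 45.6% for all genes. When all genes were divided by this content into 5 parts of equal size, a region was found at 16.2%, 27.2%, 41.4%, 70.3% and 91.5% of the genes from the lowest part to the highest. KRT20 was in the lowest part and KLF5 in the next, KLF4, HNF4A, VIL1 and LGALS4 in the fourth and CDX1, CDX2 and MUC2 in the highest. For each member the presence or absence of a region was that of the majority of genes in its part. The part of composition in the result was not tested.

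**Figure D3:**
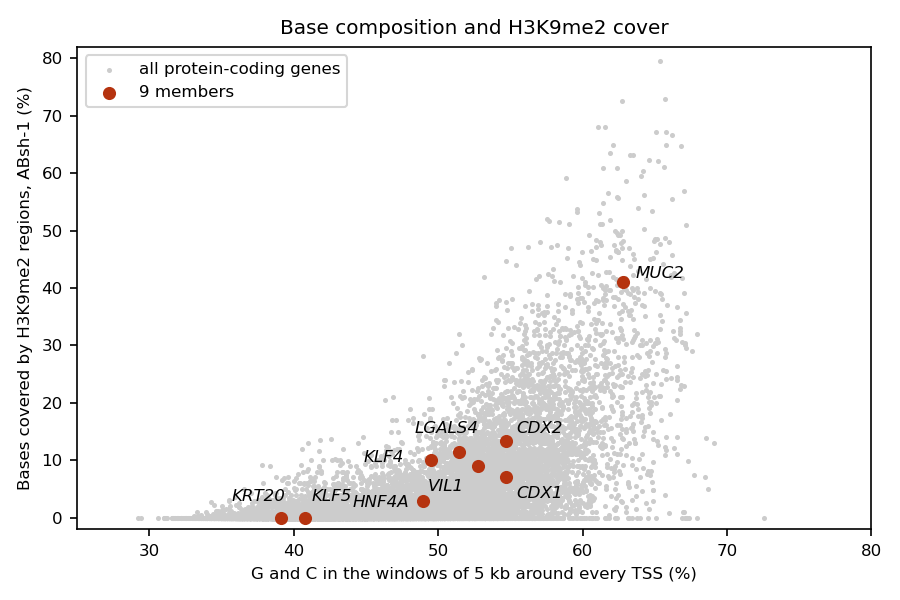
H3K9me2 cover in depleted cells (percentage of bases in the windows of 5 kb around every TSS) against the percentage of G and C in the same windows, for all protein-coding genes (grey) and the 9 members (red). KRT20 and KLF5 lie at 0% cover and the lowest content, and MUC2 at 41.0% cover and 62.8%.

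By the presence or absence of KDM3B and H3K9me2 regions in the 2 populations within 5 kb, the 9 genes fell into 5 patterns. CDX1 and CDX2 had KDM3B in control cells and H3K9me2 in depleted cells alone, a pattern of 1724 protein-coding genes (8.55%) that also held ELF3, FOXA1, CA2, CDHR2, GUCA2A, GUCA2B and USH1C among the other intestinal genes listed. KLF4, HNF4A and VIL1 had H3K9me2 in depleted cells alone, as 22.4% of genes did. MUC2 and LGALS4 had H3K9me2 in both populations and no KDM3B, as 5.95% of genes did, with CA4, GFI1, MUC5B, SLC15A1 and TFF1 among the listed genes. KLF5 had KDM3B in both and no H3K9me2, a pattern of 6.16% of genes shared by HES1, a Notch target of absorptive precursors, and KRT19, a keratin of simple epithelia. KRT20 had no region, as was so for 31.6% of genes.

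Other intestinal genes, listed by role, gave the setting. The shares of all genes within 5 kb, for comparison, were 35.0% and 19.2% for KDM3B in control and depleted cells and 10.2% and 49.2% for H3K9me2. Among 19 further transcription factors, KDM3B lay within 5 kb at 8 in control cells (42.1%) and at 3 in depleted cells (15.8%), and H3K9me2 at 5 (26.3%) and 16. The widest KDM3B cover was at ELF3, an ETS factor of epithelial differentiation, with 1400 bases, and H3K9me2 in depleted cells covered 3000 bases at GATA5 and 2800 bases at FOXA1. Among 27 absorptive and brush border genes the numbers were 12 (44.4%) and 4 (14.8%) for KDM3B and 4 (14.8%) and 17 for H3K9me2. KRT19 led for KDM3B with 1300 bases, and ANPEP and CA4, an aminopeptidase and a carbonic anhydrase of the apical membrane, led for H3K9me2 with 4600 and 4400. Among 15 goblet and secretory genes the numbers were 2 (13.3%) and 0 for KDM3B, and 4 (26.7%) and 9 for H3K9me2, with 10700 covered bases at MUC5B, 6181 at MUC5AC and 3600 at TFF3. H3K9me2 was found in depleted cells at 84.2%, 63.0% and 60.0% of the genes of the 3 lists, whose median window content of G and C was 51.9%, 48.2% and 49.0%.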

How the data were processed

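ChIP-seq regions of KDM3B and H3K9me2 were analysed for control (HCT116/Scrsh) and depleted (HCT116/ABsh-1) cells, from 1 library each. The authors mapped reads of the libraries to hg19 with Bowtie, kept uniquely placed reads, counted a position once, compared ChIP with input in each 100-bp window by a Poisson p-value, and deposited the called regions of each library with a number in column 5 of unnamed meaning, which was treated as a score and used for ranks alone. Regions of a single window are in each list, although the methods ask for neighbouring windows. Per the file values, starts count from 1.

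The members and gene lists were chosen with earlier results of these data known. All 9 members were named, with the regions in their 5 kb windows and bodies given singly or by range, and other listed genes by the rule of at most 3 per list with the most covered bases, or because they share a member's pattern. The values of 1 listed gene are not reported here. Genes and TSSs came from GENCODE release 44 lifted to hg19, without chrM. Positions relative to a gene refer to the transcript tagged canonical. Region overlaps needed 1 bp. Counting was tested on simulated regions. Analyses used Python 3.11.15, pandas 2.3.3, numpy 2.4.6, scipy 1.17.1 and pysam 0.24.0. With 1 library per condition no test was made. Depth is unknown, so no interval was given. Input libraries were not analysed here.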

Additional observations from a re-analysis of the deposited data

How the results depend on the processing

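Each of the 12 counts of members was recomputed under the alternative settings, which gave 80 values, of which 56 were the same or within 1.5 times and 24 moved. Requiring the region's centre inside moved none, and neither did protein-coding transcripts alone, which were tried within 5 kb. Under the former, H3K9me2 in depleted cells stayed at 7 genes within 5 kb, within 50 kb and in the body. It also did so under widths of at least 200 bp, the 50% of regions of highest column 5 and the longest coding transcript of each gene. The shares of all genes under these settings ran from 37.3% to 49.0%, from 62.2% to 75.8% and from 38.4% to 50.9%. With equal numbers of regions per antibody, ties left out or kept, it moved to 3 genes within 5 kb and 4 in the body, and KDM3B in control cells to 1 within 5 kb and 5 within 50 kb. With regions of at least 200 bp, KDM3B within 5 kb moved to 1 in control cells (background 21.1%) and 0 in depleted cells (9.17%). In depleted cells KDM3B moved to 1 in the body (8.88%) and 4 within 50 kb (27.9%). H3K9me2 in control cells moved to 1 within 5 kb (4.05%), 0 in the body (6.4%) and 1 within 50 kb (15.5%). With the 50% of highest column 5, KDM3B moved to 1 and 0 within 5 kb, 1 in the body (depleted cells) and 5 within 50 kb in either population, and H3K9me2 in control cells to 1 within 5 kb and 1 within 50 kb. The window of 2 kb moved H3K9me2 in control cells to 1 (background 6.86%). The longest coding transcript moved KDM3B in the body in depleted cells to 1 (15.1%), since HNF4A was lost. Shorter lists hold fewer regions by construction. Of 72 values of covered bases, 56 were unchanged and 16 lower. Both settings used for them can only keep or lower a value. Many main values were 0 and could not move, so the number unchanged is not a measure of stability. Among alternatives added after seeing the data, H3K9me2 over the canonical TSS in depleted cells moved from 4 to 1 with equal numbers. The share of all genes there was 4.78% and then 2.03%, or 2.07% with ties kept. The covered bases without MUC2 were 8400. No paired analysis was possible because each condition has 1 library and no test was made. Depth is unknown and no library can be left out.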

Other observations

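MUC2 lies in a cluster of mucin genes on chromosome 11, and the neighbours were looked at after the values of MUC2 had been seen. In depleted cells, H3K9me2 regions covered 34.8% of the body of MUC6, 15.0% of MUC5AC and 28.9% of MUC5B, beside 46.2% of MUC2. The genes that flank the cluster, AP2A2 and TOLLIP, were covered for 4.94% and 8.79%. In control cells the cover was 5.02% at MUC6, 0.677% at MUC2, 0.511% at MUC5B and 0.424% at MUC5AC, and 0% at AP2A2 and TOLLIP. No KDM3B region lay in the body of any of the 6 genes in either population.

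CDX2 neighbours PDX1, the homeobox gene of pancreas and duodenum. The widest H3K9me2 region within 50 kb of a CDX2 TSS in depleted cells was nearest to a PDX1 start, 2300 bp at chr13:28494801-28497100 with a column 5 of 441. The one region of control cells in that window, at chr13:28502601-28502700, was also nearest to PDX1 and overlapped a region of depleted cells.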
